A study of Homo sapiens with 6 samples.

Results

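Genes of the intestine and liver lineages were followed in 22RV1 prostate cancer cells that overexpressed miR-338-5p or miR-421. 22RV1 is an established human line. The set held 46 genes, chosen by name among the 41810 gene names on the array. It held 13 regulators (mostly transcription factors), 16 proteins that liver secretes, 11 proteins of the gut epithelium's surface and structure, and 6 proteins that mucosal linings secrete. All 46 were on the array, with 67 probes between them.

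The data came from 6 Agilent 2-colour arrays, 3 for each miRNA. Per the labels, every culture was a stable 22RV1 line kept under puromycin: pLemiR-338-5p, pLemiR-421 or, as the control, pLemiR-RFP with a red fluorescent protein in place of the miRNA. Control RNA was in Cy3 and the miRNA line's RNA in Cy5 on each array, and the dyes were never swapped. The miR-338-5p arrays are replicates 1, 2 and 3, and the miR-421 arrays are a sample named a pool and replicates 1 and 2. The labels do not say what was pooled or whether a replicate is a separate culture, so an SD or p-value measures only the spread between these samples, which may be technical.

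In liver and gut, transcription factors of the HNF4, GATA, FOXA, CDX and ONECUT families bind one another's genes and the genes of the tissue's products, such as albumin and the apolipoproteins. Prostate epithelium makes little of these products, yet a programme of gut and liver genes that involves HNF4G has been described in some prostate cancers, and SPINK1 is among its genes. A miRNA lowers the output of messenger RNAs that pair with it, chiefly through its seed, bases 2 to 8. Both miRNAs are printed 5′ to 3′ with the seed in capitals (RefSeq, GRCh38.p14; hsa-miR-338-5p is on the minus strand of chromosome 17 from 81125923 to 81125944, and hsa-miR-421 on the minus strand of chromosome X from 74218392 to 74218414). Their seeds differ.
hsa-miR-338-5p: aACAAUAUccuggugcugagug
hsa-miR-421: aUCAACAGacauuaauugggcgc

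Promoters of the members were searched for the letters of several liver and gut factors, and the upstream bases of 3 members that the results turn on are shown. RefSeq promoter windows (GRCh38.p14, from 250 bases before the start site to 50 after it) were at hand for 31 of the 46 members, in 36 windows because some genes have more than 1. Each motif was searched on both strands. The GATA letters AGATAA, which also read as TTATCT, lay in 13 member windows (36.1%) and in 10.3% of all 35116 windows of that length. The FOXA letters TGTTTAC lay in 4 (11.1%, against 3.42%) and the HNF4 letters CAAAGTCC in 3 (8.33%, against 1.2%). A match of letters is a description and not a binding site. The 250 bases before the start site are printed for ALB and APOH, which were above control on a single array, and for LGALS4, which was below control on all 6. Capitals mark AGATAA or TTATCT, at 2 places for APOH (chr17:66229416-66229665, minus strand) and at no place for ALB (chr4:73404037-73404286, plus strand) or LGALS4 (chr19:38812946-38813195, minus strand). Only these exact letters were searched and marked. The similar letters TGATAA, which are not marked, occur in the printed bases of both ALB and LGALS4.
ALB: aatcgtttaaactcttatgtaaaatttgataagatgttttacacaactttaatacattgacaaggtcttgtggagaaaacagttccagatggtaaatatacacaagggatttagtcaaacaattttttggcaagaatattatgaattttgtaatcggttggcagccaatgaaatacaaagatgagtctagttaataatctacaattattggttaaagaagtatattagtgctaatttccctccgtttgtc
APOH: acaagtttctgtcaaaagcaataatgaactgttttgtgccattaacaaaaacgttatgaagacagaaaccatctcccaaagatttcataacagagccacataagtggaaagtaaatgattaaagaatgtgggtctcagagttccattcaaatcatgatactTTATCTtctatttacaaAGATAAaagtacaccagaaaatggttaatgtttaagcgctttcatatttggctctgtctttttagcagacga
LGALS4: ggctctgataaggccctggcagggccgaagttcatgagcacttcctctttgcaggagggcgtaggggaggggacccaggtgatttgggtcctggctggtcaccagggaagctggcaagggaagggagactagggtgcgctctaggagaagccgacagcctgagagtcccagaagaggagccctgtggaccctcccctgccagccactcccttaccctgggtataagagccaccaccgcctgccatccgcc

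Prostate luminal markers had the highest summed signal of the cell type lists followed. All 9 luminal markers (among them KLK3, KLK2, HOXB13, FOXA1, TMPRSS2, KRT8 and KRT18) were well above background in both dyes on every array, while the basal markers TP63, KRT5 and KRT14 and the fetal liver marker AFP were too dim to test. AFP was well above background on 1 array alone, in Cy5 on miR-338-5p replicate 2. The other basal marker, KRT15, and the other fetal liver markers, GPC3 and DLK1, were well above background in the control on all 6 arrays. They passed in neither comparison with control. Some markers of other cell types were also well above background. In the control this held on all 6 arrays for 3 of 5 neuroendocrine, 3 of 5 fibroblast and 3 of 4 blood cell markers. SPINK1, by whose expression the labels describe the cells, had log2 ratios of -3.04, -2.10 and -6.78 in the miR-338-5p arrays and -7.01, -6.68 and -6.15 in the miR-421 arrays. Between 44.3% and 47.9% of probes were well above background in Cy3, and between 41.9% and 48.3% in Cy5. For several genes described here miR-338-5p replicate 2 stood apart, and for TFF2 and NR5A2 the miR-421 pool did. Their values are given beside the results that rest on them. In Cy3, which holds the control, the pool was more than 1 on the log2 scale above the median of the other arrays for 325 of 21131 genes and miR-421 replicate 1 for 117, and each other array for 0 or 1.

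Control 22RV1 cells carried signal for 24 members on every array and were too dim for many others. A probe counted as well above background where the image software called its spot brighter than the local background. In the control dye, 24 of the 46 members met this on all 6 arrays and 17 on none. A probe was tested if at least 3 arrays met this in Cy3 or Cy5, which left 28 members in the tests and 18 out. Of those 18, 14 were well above background nowhere with any probe. They were the regulators HNF4A, CDX2, FOXA2 and ONECUT1, the liver products FGA, FGB, FGG, APOC3 and TF, and the gut proteins FABP1, CEACAM5, ANXA13, TM4SF4 and TM4SF20. The HNF4A probe lists only 3 RefSeq transcripts, and whether it reads other forms of this regulator was not tested. GATA4 was above background on 1 array in each dye.

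The other 3 untested members were seen only in a miRNA line. APOB, the main protein of low-density lipoprotein, was above background in Cy5 on miR-338-5p replicate 2 with 1 of its 2 probes, with a log2 ratio of -0.0042 there. CEACAM6, a cell surface adhesion protein, was above background in Cy5 on miR-338-5p replicate 3, with a log2 ratio of 0.72 there. REG4, a lectin of gut secretory cells, was above background in Cy5 on 2 miR-338-5p arrays, with log2 ratios of 0.07, 0.53 and 0.13 in replicates 1, 2 and 3. No test was made for these 3.

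Of the 28 tested members, 5 fell and 0 rose with miR-338-5p, and 9 fell and 1 rose with miR-421, by limma at an adjusted p under 0.05. Among all 21129 tested genes, 5.29% fell and 4.03% rose with miR-338-5p. Among all 21122 tested genes, 12.9% fell and 10.1% rose with miR-421. At an unadjusted p under 0.05, 9 members passed in the miR-338-5p test and 14 in the miR-421 test. The median log2 ratio of the tested members was -0.03 with miR-338-5p and -0.17 with miR-421, beside medians of -0.0015 and 0.0052 over all genes. The members with a tested probe are those bright enough in some sample, so these counts describe them and not the whole set. With trended and robust variance, 0 members passed in the miR-338-5p test and 8 in the miR-421 test. In that fit ONECUT2, APOA2 and LGALS4 had the same limma adjusted p of 0.0605 with miR-338-5p. The shares of all genes in that fit and at an unadjusted p under 0.05 are not given here.

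By role, falls were counted among regulators, liver products and gut surface proteins. Of 8 tested regulators, 2 fell with miR-338-5p and 3 with miR-421. Of 10 tested liver products, 1 fell with miR-338-5p, and 3 fell and 1 rose with miR-421. Of 5 tested gut surface proteins, 2 fell with miR-338-5p and 3 with miR-421. None of the 5 tested mucosal secreted proteins passed in either comparison by limma (0 and 0, with 0 and 1 at an unadjusted p under 0.05). The 5 members that fell with miR-338-5p, namely ONECUT2, NR1H4, APOA2, LGALS4 and MUC13, were also among the 9 that fell with miR-421. Both comparisons set a miRNA line against control RNA of the same kind, and whether it was the same preparation is not stated in the labels. They also share the dye order and 1 estimate of the spread, so their calls are not independent. A dye bias of these genes was not tested, and the overlap of calls over all genes is not given here.

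**Figure D1:**
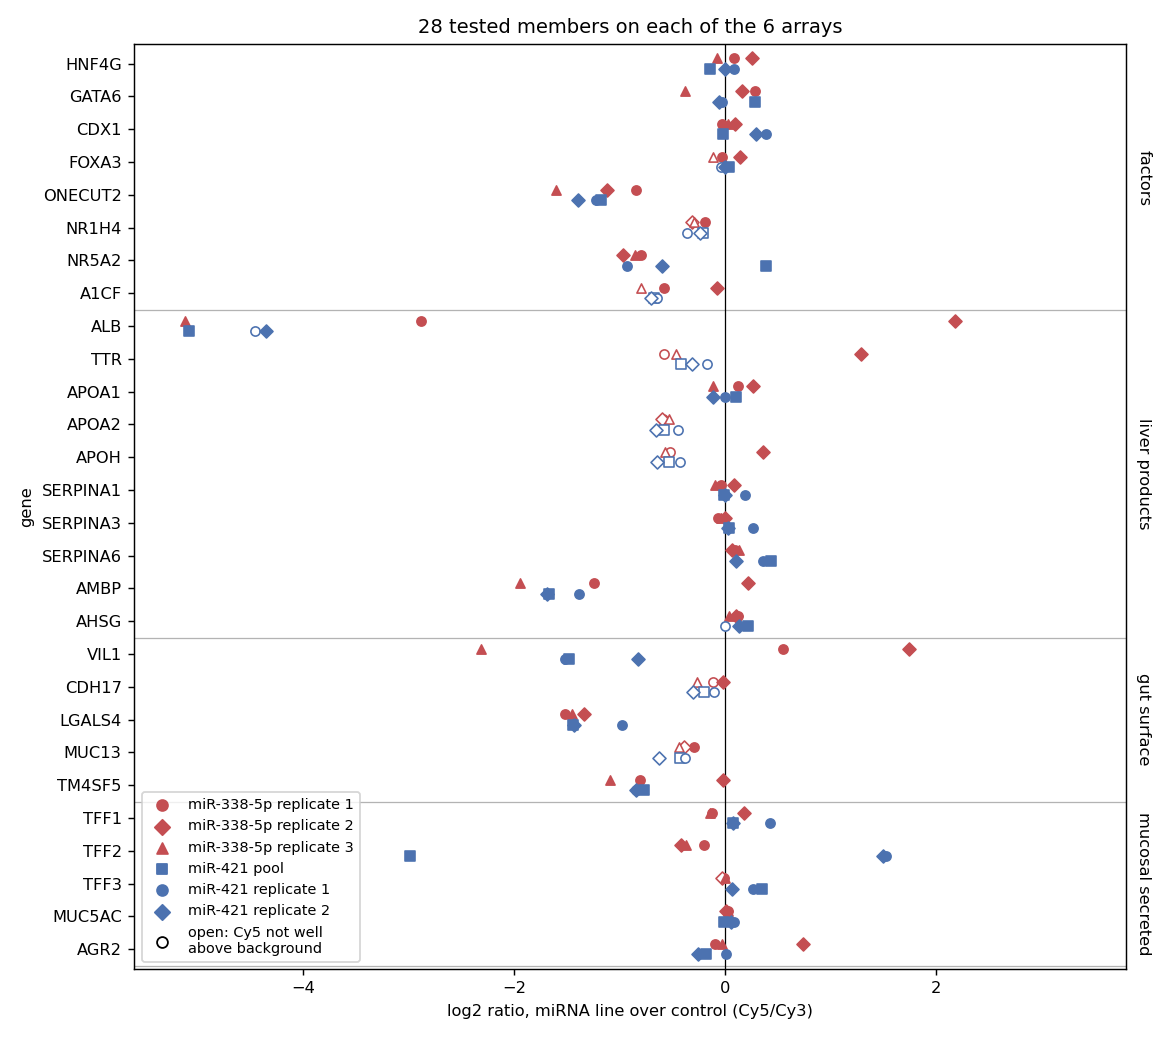
Log2 ratio of the miRNA line over control (Cy5 over Cy3, horizontal axis) for the 28 tested members (vertical axis, by role), 1 point per array, open where Cy5 was not well above background. LGALS4, ONECUT2 and APOA2 lie to the left of 0 on all 6 arrays, whereas ALB lies at 2.18 on miR-338-5p replicate 2 and between -5.12 and -2.89 on the other 5.

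Among the regulators, ONECUT2 fell most. ONECUT2 is a homeodomain factor of liver and pancreas development that has also been studied in prostate cancer. Its log2 ratios were -0.85, -1.12 and -1.61 on miR-338-5p replicates 1, 2 and 3. They were -1.18 on the miR-421 pool and -1.22 and -1.40 on replicates 1 and 2. All 6 arrays lay below control, and the values of the lines overlapped. The mean was -1.19 ± 0.39 (SD, n = 3; limma adjusted p = 0.0128) with miR-338-5p and -1.27 ± 0.12 (SD, n = 3; limma adjusted p = 0.00611) with miR-421, which is 2.28-fold and 2.40-fold lower. The probe (NM_004852) lies on chromosome 18 from 55158392 to 55158451, plus strand, in hg19. Without miR-338-5p replicate 2 the miR-338-5p value was -1.23 (limma adjusted p = 0.0506), and without miR-421 replicate 2 the miR-421 value was -1.20 (limma adjusted p = 0.0516). The miR-338-5p call for ONECUT2 was also lost with trended and robust variance (limma adjusted p = 0.0605). The same held in a fit of the miR-338-5p arrays alone (limma adjusted p = 0.057). Its paralog ONECUT1 was not well above background on any array.

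NR1H4 (the bile acid receptor FXR) also fell in both lines, by a small amount near the detection limit. The log2 ratios stood at -0.19, -0.32 and -0.30 with miR-338-5p and -0.21, -0.36 and -0.23 with miR-421, in the array order given for ONECUT2, which is used from here on. All lay below 0 and within a narrow band. The means were -0.27 ± 0.07 (SD, n = 3; limma adjusted p = 0.0423) and -0.27 ± 0.08 (SD, n = 3; limma adjusted p = 0.0262). In Cy5 the probe was well above background on 1 miR-338-5p array and on no miR-421 array (0 of 3), so with miR-421 it was at least 1.20-fold lower. Such a bound sets the control mean against the higher of the probe's own signal and the lowest signal called well above background on each array. Where Cy5 is not well above background, a small SD may reflect that floor and not agreement between samples. Leaving out any 1 array of its own line ended the call (limma adjusted p from 0.0907 to 0.155 for the miR-338-5p call and from 0.0635 to 0.105 for the miR-421 call), and the miR-338-5p call was also lost when the pool (0.0769) or miR-421 replicate 2 (0.0874) was left out, or with median centring (0.052). Both calls were lost with trended and robust variance (limma adjusted p = 0.0896 and 0.0517). They were also lost in a fit of each line's own arrays alone (limma adjusted p = 0.0938 and 0.0671).

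A1CF, the RNA-binding cofactor of APOB messenger RNA editing, fell with miR-421. By array, the log2 ratios were -0.58, -0.08 and -0.80 with miR-338-5p and -0.67, -0.65 and -0.70 with miR-421. The miR-421 arrays sat together, with Cy5 not well above background, while miR-338-5p replicate 2 sat close to control. The miR-421 mean was -0.67 ± 0.03 (SD, n = 3; limma adjusted p = 0.0211), and with Cy5 above background on 0 of 3 arrays this was at least 1.59-fold lower. The miR-338-5p mean of -0.49 ± 0.37 (SD, n = 3) did not pass (limma adjusted p = 0.0749), but without replicate 2 it was -0.69 (limma adjusted p = 0.0323). Without any 1 miR-421 array the miR-421 call was lost (limma adjusted p from 0.0662 to 0.102).

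NR5A2, the nuclear receptor LRH-1 of liver, pancreas and gut crypts, passed in neither comparison. Its log2 ratios were -0.79, -0.97 and -0.86 with miR-338-5p and 0.39, -0.93 and -0.60 with miR-421. Only the miR-421 pool lay above control. The other NR5A2 probe was not well above background on any array. The means were -0.87 ± 0.09 (SD, n = 3; limma adjusted p = 0.0736) and -0.38 ± 0.69 (SD, n = 3; limma adjusted p = 0.288). Without the pool, the miR-421 mean was -0.77 (limma adjusted p = 0.0207) and the miR-338-5p value of -0.87 passed as well (limma adjusted p = 0.0249), since the arrays share 1 estimate of the spread. The miR-338-5p value also passed without miR-421 replicate 1 (0.0423).

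The other 4 tested regulators passed in neither comparison. GATA6, an endoderm factor, had log2 ratios of 0.29, 0.16 and -0.38 with miR-338-5p and 0.28, -0.03 and -0.06 with miR-421. CDX1, a gut homeobox factor, had -0.03, 0.09 and 0.03 with miR-338-5p and -0.02, 0.39 and 0.29 with miR-421. This rests on a single CDX1 probe. Of the others for the same transcript, 1 was detected nowhere and 1 only in Cy5 on the miR-421 pool. HNF4G, the second HNF4 gene, had 0.08, 0.26 and -0.08 with miR-338-5p and -0.14, 0.08 and 0.00 with miR-421. Its value comes from a dim probe for an Ensembl transcript, and the probes for its RefSeq transcript were not detected. FOXA3, a pioneer factor of liver, had means of 0.00 ± 0.13 and 0.00 ± 0.04 (SD, n = 3 each). The limma adjusted p of these 4 lay at 0.12 or above in both comparisons. Without the pool, CDX1 passed as higher with miR-421 (0.34, limma adjusted p = 0.0449).

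Among the liver products, ALB had the widest range of any member. ALB encodes serum albumin, the main secreted protein of hepatocytes. Control cells carried clear ALB signal, with a normalized log2 Cy3 signal between 11.1 and 11.4 on the 6 arrays. The miRNA line's log2 Cy5 signal was 8.19, 13.4 and 6.23 with miR-338-5p and 6.09, 6.62 and 6.91 with miR-421. As a percentage of the control signal on the same array, this was 13.5%, 452% and 2.87% with miR-338-5p and 2.95%, 4.55% and 4.90% with miR-421. Thus 5 arrays were far below control and miR-338-5p replicate 2 was above it. The control signal did not differ in this way, so the split lay in Cy5.

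ALB fell with miR-421. Its log2 ratios there were -5.08, -4.46 and -4.35 and averaged -4.63 ± 0.40 (SD, n = 3; limma adjusted p = 0.0475), or 24.8-fold lower. Cy5 was well above background on 2 of these 3 arrays. With miR-338-5p the log2 ratios were -2.89, 2.18 and -5.12, and the mean of -1.94 ± 3.74 (SD, n = 3) did not pass (limma adjusted p = 0.382). Without replicate 2 it was -4.00 (limma adjusted p = 0.0397). The miR-421 call was lost without any 1 miR-421 array (limma adjusted p from 0.131 to 0.157) and without miR-338-5p replicate 1 (limma adjusted p = 0.0773), and its value then stayed between -4.77 and -4.41. It was also lost with median centring in place of loess (limma adjusted p = 0.0644) and with no filter on dim probes (0.101). The probe (NM_000477) lies on chromosome 4 from 74285342 to 74286015, plus strand, in hg19.

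AMBP, the precursor of alpha-1-microglobulin and bikunin, split like ALB, with a smaller range. The log2 ratios stood at -1.24, 0.22 and -1.95 with miR-338-5p and -1.67, -1.39 and -1.69 with miR-421. Again only miR-338-5p replicate 2 was above control. AMBP fell with miR-421 by 1.58 ± 0.17 (SD, n = 3; limma adjusted p = 0.0342), or 2.99-fold, and with miR-338-5p the mean of -0.99 ± 1.103 (SD, n = 3) did not pass (limma adjusted p = 0.156). Without replicate 2 the miR-338-5p mean was -1.59 (limma adjusted p = 0.0319). The miR-421 call was lost without any 1 array of that line (limma adjusted p from 0.0904 to 0.141) or without miR-338-5p replicate 1 (limma adjusted p = 0.0596). It was also lost with no filter on dim probes (limma adjusted p = 0.0732).

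TTR and APOH were seen in the miRNA lines on a single array. TTR encodes transthyretin, a carrier of thyroid hormone and retinol-binding protein. By array, the log2 ratios were -0.58, 1.29 and -0.47 with miR-338-5p and -0.42, -0.17 and -0.31 with miR-421. APOH encodes beta-2-glycoprotein I, and its log2 ratios were -0.52, 0.36 and -0.57 with miR-338-5p and -0.53, -0.43 and -0.65 with miR-421. For both genes, Cy5 was well above background on miR-338-5p replicate 2 and on no other array. Neither passed (limma adjusted p of 0.913 and 0.588 for TTR, and of 0.452 and 0.0859 for APOH), and with miR-421 APOH was at least 1.43-fold lower as a bound. Without miR-338-5p replicate 2, APOH fell with miR-338-5p (-0.55, limma adjusted p = 0.0442) and with miR-421 (-0.54, limma adjusted p = 0.0107), and TTR passed as lower with miR-421 (-0.30, limma adjusted p = 0.0426). With miR-421, APOH passed as lower in 6 of 17 alternatives. Its value was -4.04 with background subtracted (limma adjusted p = 0.0168), -4.0014 in the authors' deposited table (0.0202) and -4.0002 by the image software's ratio (0.0223).

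APOA2 fell in both lines, and was lower on every array, replicate 2 included. APOA2 is an apolipoprotein of high-density lipoprotein. Its log2 ratios were -0.59, -0.60 and -0.53 with miR-338-5p and -0.58, -0.44 and -0.65 with miR-421. It was well above background in the control on all 6 arrays and in Cy5 on none. The measured means were -0.57 ± 0.04 (SD, n = 3; limma adjusted p = 0.00921) and -0.56 ± 0.11 (SD, n = 3; limma adjusted p = 0.00537), which as bounds are at least 1.49-fold and at least 1.47-fold lower. The miR-338-5p call was lost with trended and robust variance (limma adjusted p = 0.0605) and in a fit of that line's arrays alone (0.0502). The offset of 50 added in the background correction pulls ratios of dim probes towards 0, and with another background or ratio the APOA2 mean reached -3.59 and -3.99. In the same way the most negative means over all alternatives were -2.77 and -2.38 for LGALS4, -1.81 and -2.25 for ONECUT2, -2.55 and -3.74 for MUC13 and -2.003 and -2.73 for NR1H4. With miR-421 alone they were -3.20 for A1CF, -2.27 for TM4SF5, -2.89 for AMBP and -6.50 for ALB. The sizes of these falls therefore depend on the background correction, and their direction did not in any alternative tried.

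SERPINA6, the cortisol carrier of plasma, was the only member that rose in the 2 comparisons with control. The log2 ratios stood at 0.10, 0.07 and 0.14 with miR-338-5p and 0.44, 0.36 and 0.10 with miR-421. The groups met at miR-421 replicate 2. The miR-421 mean was 0.30 ± 0.18 (SD, n = 3; limma adjusted p = 0.0386), and leaving out any 1 of the 6 arrays ended the call (limma adjusted p from 0.0567 to 0.145), as did median centring (0.119). The SERPINA6 call was also lost with no filter on dim probes (limma adjusted p = 0.0553) and with trended and robust variance (0.0506). The same held in a fit of the miR-421 arrays alone (limma adjusted p = 0.101). APOA1, SERPINA1, SERPINA3 and AHSG, all abundant plasma proteins of liver, had means between -0.03 and 0.12 and did not pass (limma adjusted p of 0.22 or above).

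**Figure D2:**
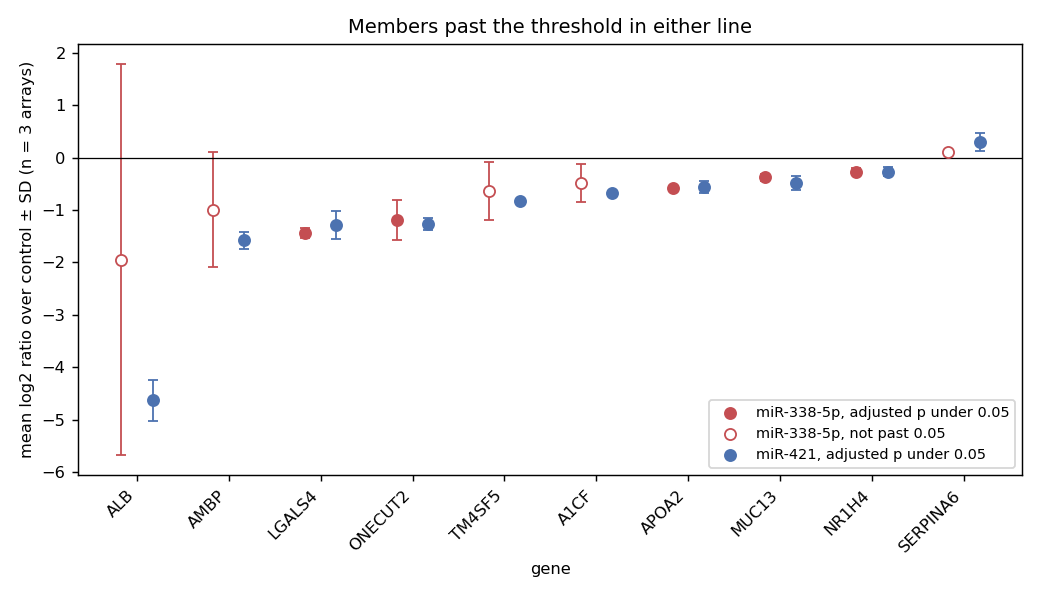
Mean log2 ratio over control (vertical axis; bars are the SD over 3 arrays) of the 10 members past the threshold with either miRNA (horizontal axis), filled where the limma adjusted p was under 0.05. ALB, AMBP, TM4SF5 and A1CF have wide bars with miR-338-5p and narrow ones with miR-421, and LGALS4 has means of -1.44 and -1.28.

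Among the gut surface genes, LGALS4 fell with the lowest p of any member. LGALS4 is galectin-4, a lectin of the gut epithelium. By array, the log2 ratios were -1.52, -1.34 and -1.45 with miR-338-5p and -1.44, -0.98 and -1.43 with miR-421. All 6 arrays were well below control, with miR-421 replicate 1 the least so. The means were -1.44 ± 0.09 (SD, n = 3; limma adjusted p = 0.00483) and -1.28 ± 0.26 (SD, n = 3; limma adjusted p = 0.00316), or 2.70-fold and 2.43-fold lower. The call held with each array left out in turn, up to a limma adjusted p of 0.0378 with miR-338-5p and 0.0358 with miR-421, and for miR-338-5p it was lost with trended and robust variance alone (0.0605). The probe (NM_006149) lies on chromosome 19 from 39292766 to 39292983, minus strand, in hg19.

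MUC13, a transmembrane mucin of the gut, fell by less in both lines. Its log2 ratios were -0.30, -0.39 and -0.43 with miR-338-5p and -0.43, -0.38 and -0.63 with miR-421. All were below 0 and the groups overlapped. The means were -0.37 ± 0.07 (SD, n = 3; limma adjusted p = 0.0307) and -0.48 ± 0.13 (SD, n = 3; limma adjusted p = 0.0097). Cy5 was well above background on 1 miR-338-5p array and 0 miR-421 arrays, so the miR-421 value is a bound of at least 1.37-fold lower. The miR-338-5p call was lost without any 1 array of that line (limma adjusted p from 0.0781 to 0.125) and when the pool (0.0605) or miR-421 replicate 2 (0.0502) was left out. It was also lost with trended and robust variance (limma adjusted p = 0.0786) and in a fit of that line's arrays alone (0.0658). The miR-421 call was lost without miR-421 replicate 2 (-0.40, limma adjusted p = 0.0595).

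TM4SF5, a tetraspanin-like surface protein, fell with miR-421. The log2 ratios stood at -0.80, -0.02 and -1.09 with miR-338-5p and -0.77, -0.85 and -0.84 with miR-421. As for A1CF, miR-338-5p replicate 2 sat at control while the other 5 arrays were lower. The miR-421 mean was -0.82 ± 0.04 (SD, n = 3; limma adjusted p = 0.0319). The miR-338-5p mean was -0.64 ± 0.55 (SD, n = 3; limma adjusted p = 0.092) and, without replicate 2, -0.95 (limma adjusted p = 0.0286). Without any 1 miR-421 array the miR-421 call was lost (limma adjusted p from 0.0932 to 0.131), as it was without miR-338-5p replicate 1 (0.0548). It was also lost with no filter on dim probes (limma adjusted p = 0.0662).

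VIL1 varied more between the miR-338-5p arrays than any member but ALB. VIL1 is villin, an actin-bundling protein of the brush border. By array, the log2 ratios were 0.55, 1.75 and -2.32 with miR-338-5p and -1.48, -1.51 and -0.83 with miR-421. The 3 miR-421 arrays were below control, and the miR-338-5p arrays lay on both sides of it. Neither mean passed (-0.01 ± 2.09 and -1.28 ± 0.39, SD, n = 3 each; limma adjusted p = 0.997 and 0.244). The miR-421 mean passed without miR-338-5p replicate 3 (limma adjusted p = 0.0357) and in a fit of the miR-421 arrays alone (0.0255). CDH17, an intestinal cadherin, was dim and had log2 ratios between -0.31 and -0.02 (limma adjusted p = 0.28 and 0.087). With miR-421, CDH17 passed as lower in 4 of 17 alternatives: its value was -0.47 without background correction (limma adjusted p = 0.0484), -1.60 with background subtracted (0.0141) and -2.43 with both the image software's ratio (0.022) and the authors' deposited table (0.0198).

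The mucosal secreted proteins passed in neither comparison, and TFF2 stood apart by its control signal. TFF2 is a trefoil peptide of the gastric mucosa. Its log2 ratios were -0.20, -0.42 and -0.37 with miR-338-5p and -2.99, 1.53 and 1.50 with miR-421. The pool thus went against both miR-421 replicates. The dyes show where the split lay. The log2 Cy3 signal of the control was between 6.93 and 7.01 on 5 arrays and 12.1 on the pool, which is 34.9-fold above the median of the others. In Cy5, by contrast, the miR-421 arrays stood together at 9.11, 8.50 and 8.50, above 6.80, 6.53 and 6.55 with miR-338-5p.

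The TFF2 mean with miR-421 was 0.01 ± 2.60 (SD, n = 3; limma adjusted p = 0.994), and without the pool it was 1.51 (limma adjusted p = 0.00895). When the lines were compared by Cy5 signal alone, an alternative chosen after this split was seen, TFF2 was 4.21-fold lower with miR-338-5p than with miR-421 (-2.07 on the log2 scale, limma adjusted p = 0.0474), 1 of 37 genes that passed this test. TFF2 has 1 spot on each array, and no outlier flag was set on any (0). Over all 21131 genes, the control signal of the pool was more than 2 on the log2 scale above the median of the other arrays for 15 genes, and this was so for 0 or 1 genes on each other array. The TFF2 excess of 5.13 was the 3rd largest on the pool. Whether this control sample or this hybridization differed was not tested.

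**Figure D3:**
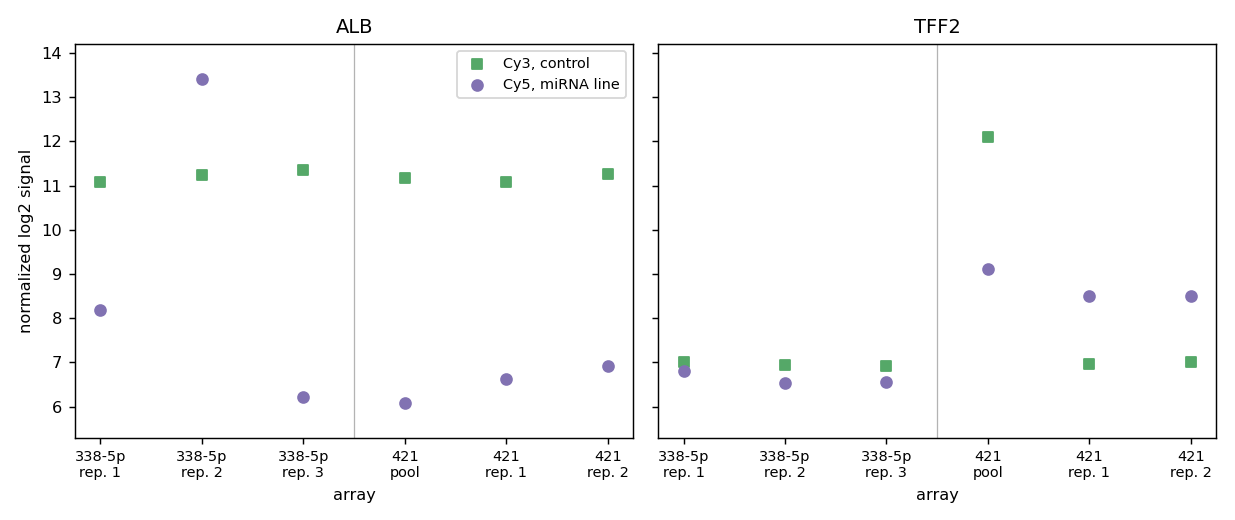
Normalized log2 signal (vertical axis) of ALB and TFF2 in control (Cy3, squares) and miRNA line (Cy5, circles) on each of the 6 arrays (horizontal axis). For ALB the squares are level and the circle of miR-338-5p replicate 2 is highest at 13.4, and for TFF2 the square of the miR-421 pool is highest at 12.1.

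The other mucosal genes also did not pass in the test reported here. TFF1, another trefoil peptide, had means of -0.03 ± 0.18 and 0.19 ± 0.20 (SD, n = 3 each). TFF3, the trefoil peptide of goblet cells, had log2 ratios of 0.35, 0.27 and 0.07 with miR-421 (mean 0.23 ± 0.15, SD, n = 3; limma adjusted p = 0.058) and a mean of -0.01 with miR-338-5p. With miR-421 it passed as higher with background subtracted (1.18, limma adjusted p = 0.0194) and with the image software's ratio (1.62, 0.0211). It was well above background in the control on 2 arrays, and the other TFF3 probes were so nowhere. AGR2, a disulphide isomerase that folds mucins, had log2 ratios of -0.09, 0.74 and -0.03 with miR-338-5p and -0.18, 0.01 and -0.26 with miR-421, again highest on miR-338-5p replicate 2. MUC5AC, a gastric mucin, stayed between -0.01 and 0.08 on all 6 arrays with its brightest probe. Another tested probe, dimmer, lay between -0.06 and 0.17 and passed in neither comparison (mean 0.13 with miR-421, limma adjusted p = 0.17).

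Across the set, miR-338-5p replicate 2 was the highest of the 6 arrays for 12 of 28 tested members (42.9%), beside 18.0% of all genes measured on all 6 arrays. The ratio was above 0 on this array and below 0 on the other 5 for 4 members (ALB, AMBP, TTR and APOH; 14.3%), beside 2.73% of all genes. The ratios spanned more than 2 on the log2 scale among the miR-338-5p arrays for 3 members (ALB, VIL1 and AMBP; 10.7%), beside 0.804% of all genes. Another 8 members (28.6%), beside 17.3% of all genes, were below 0 on all 6 arrays. Of these, replicate 2 was the highest array for 3 (A1CF, CDH17 and TM4SF5) and not for the other 5 (ONECUT2, NR1H4, APOA2, LGALS4 and MUC13). This pattern was seen in the data and is described here without a test. SPINK1 itself was 23.4% of control on replicate 2, against 12.2% and 0.913% on replicates 1 and 3. Without replicate 2, 7 members passed as lower with miR-338-5p and 11 with miR-421. This array is singled out here because these genes differed on it, and the share of all genes passing in that fit is not given here.

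**Figure D4:**
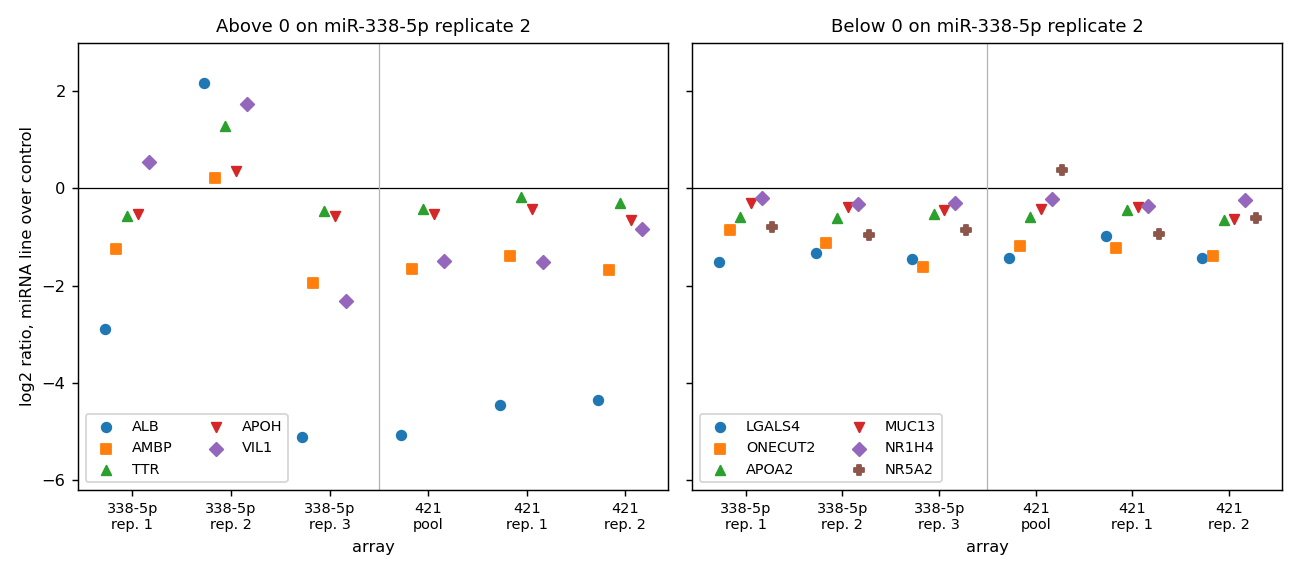
Log2 ratio over control (vertical axis) on each of the 6 arrays (horizontal axis) for genes above 0 (left) and below 0 (right) on miR-338-5p replicate 2. On the left are ALB, AMBP, TTR, APOH and VIL1; on the right LGALS4 stays between -1.52 and -0.98.

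Of the 4 members with the ALB pattern, APOH holds AGATAA in the promoter window, ALB and AMBP do not, and TTR was not in the promoter table. This holds for those exact letters only, as the ALB bases hold TGATAA. Among the other tested members, NR1H4, NR5A2, A1CF and APOA2, which were below control on replicate 2, hold it as well. So do AGR2, AHSG and SERPINA3, with log2 ratios of 0.74, 0.11 and 0.003 on replicate 2.

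Other genes of liver and gut, 97 in number and none of them members, were counted from lists written for comparison. These lists were written with earlier results of these data known, so they are not an independent comparison. Of these, 41 were tested. With miR-338-5p, 1 rose and 4 fell, and with miR-421, 4 rose and 7 fell, with medians of -0.04 and -0.10. Beside these, 4.03% of all tested genes rose and 5.29% fell with miR-338-5p, and 10.1% rose and 12.9% fell with miR-421. On miR-338-5p replicate 2 alone, 6 of the 41 (14.6%, beside 2.73% of all genes) were above control while the other 5 arrays were below. Among those past the threshold with a change of at least 1 on the log2 scale were APOC1 with miR-338-5p, and the surface proteins DPP4 and TSPAN8 with miR-421. DPP4, a brush border peptidase, had log2 ratios of -0.83, 0.63 and -1.55 with miR-338-5p and -1.69, -1.38 and -1.58 with miR-421. TSPAN8, a tetraspanin, had -1.92, -0.65 and -3.90 with miR-338-5p and -1.90, -2.12 and -2.25 with miR-421. APOC1, an apolipoprotein, had -0.62, -1.12 and -1.91 with miR-338-5p and -0.59, -0.16 and -0.44 with miR-421. The limma adjusted p was 0.0361 for DPP4 and 0.0446 for TSPAN8 with miR-421, and 0.0337 for APOC1 with miR-338-5p. None of these passed in every fit that left out 1 array: the highest adjusted p over the alternatives was 0.141 for DPP4, 0.168 for TSPAN8 and 0.105 for APOC1, each without an array of the same line (replicate 2).

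No member passed the test of the difference between the miRNA lines. The test of miR-338-5p against miR-421, in which a control level or dye bias common to all arrays cancels, called 0 of 28 members by limma (1 at an unadjusted p under 0.05, TFF3 with a difference of -0.24) and 0 of the 41 other genes. Over all 21120 genes it called 0.0142% higher and 0.0284% lower with miR-338-5p. For LGALS4 the difference was -0.15 on the log2 scale with a 95% interval from -0.51 to 0.20, and for ONECUT2 it was 0.08 with an interval from -0.41 to 0.56. Both intervals lie within 1 of 0. For ALB the difference was 2.69 with an interval from -1.62 to 7.002, and for VIL1 it was 1.27 with an interval from -1.17 to 3.71. For these genes the intervals are wide, as the spread among the miR-338-5p arrays was.

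Markers of cell type were followed beside the members. The summed log2 signal of the 9 luminal markers was 15.4 to 15.7 in control, 15.2 to 15.4 with miR-338-5p and 15.3 to 15.9 with miR-421. By limma, 2 of the 9 fell with miR-338-5p (median of the 9 log2 ratios -0.38), and 1 rose and 1 fell with miR-421 (median 0.42). Of 5 neuroendocrine markers 3 were tested, and their summed log2 signal was 9.06 to 9.40 in control, 8.31 to 9.53 with miR-338-5p and 9.67 to 11.4 with miR-421, with INSM1 among those too dim to test. Of these 3, 1 (CHGA) rose with miR-421, with log2 ratios of 1.22, 1.82 and 2.82 (limma adjusted p = 0.036). Of 5 fibroblast markers 3 were tested, with sums of 8.66 to 8.73, 8.27 to 9.55 and 9.30 to 10.5, and 1 (LUM) rose with miR-421 (2.14 on the log2 scale, limma adjusted p = 0.044). The summed log2 signal of the basal, fetal liver and blood cell markers was between 7.94 and 8.46 in every sample, for each of these lists. The part of these in the values of the members was not tested.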

How the data were processed

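Per the file headers, the authors extracted the scans in Feature Extraction, version 11.5.1.1. The deposited intensity values are unnormalized spot means and local backgrounds of both dyes. The log10 ratio, per the file headers, is that software's background-subtracted, dye-normalized Cy5 over Cy3. The deposited whole-series table holds log2 ratios whose normalization is not given in the sources used here. Both served as alternatives. Coordinates are hg19, per the file headers.

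From the intensities, background was corrected by normexp (offset 50), each array was normalized by loess, outlier spots were left out and spots of a probe averaged (R 4.3.3, limma 3.58.1). Cy3 and Cy5 levels are after between-array Aquantile scaling. Probes were kept if at least 3 of 6 arrays called them well above background in Cy3 or Cy5 (27509 of 58201). One limma fit of group means used all 6 arrays, two-sided, with Benjamini-Hochberg adjustment over probes at 0.05, which was tested on simulated data. A gene is its brightest tested probe. If 1 control preparation supplied every array, the test leaves out its spread. The number of arrays limits the precision.

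The members and lists were chosen with earlier results of these data known. Values by array are given for members past the threshold, detected regulators, members spanning over 2 within a group, and further tested members. Other liver and gut genes are named only where past the threshold with a change of at least 1 on the log2 scale, and some results are not reported here. Alternatives covered background, normalization, ratio, filter, outlier spots, arrays, variance, probes, block and channel. The replicate numbers were checked for pairing by the correlation of same-numbered samples' deviations (-0.14 and -0.21), which does not pair them.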

Additional observations from a re-analysis of the deposited data

Results flagged for a closer look

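The control signals of the 28 tested members were compared across the 6 arrays, and 3 members had an array whose gap to its nearest neighbour was a large share of the whole range. Chance alone gives such a gap in about 1 in 20 groups. For TFF2 the control signal of the miR-421 pool was highest, with a gap of 0.984 of the range. For LGALS4 and CDH17 the control signal of miR-421 replicate 1 was lowest, with gaps of 0.723 and 0.64 of ranges of 0.17 and 0.11 on the log2 scale.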

How the results depend on the processing

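The number of members that passed was 5 with miR-338-5p and 10 with miR-421. The share of all genes passing under each alternative is not given here. A change in these counts may therefore not be particular to the members. It was 0 with trended and robust variance and 2 with the group's own arrays alone for miR-338-5p, and 6 without a filter on dim probes for miR-421, where more probes were tested. With miR-421 it rose to 13 with background subtracted or the image software's ratio (APOH, CDH17 and TFF3 added) and to 12 without background correction or with the authors' deposited table (APOH and CDH17 added), and was 8 with median centring (ALB and SERPINA6 lost) or trended and robust variance. Leaving out 1 array at a time gave 3 to 7 for miR-338-5p and 2 to 11 for miR-421, with the lowest miR-421 count without miR-421 replicate 2. For miR-338-5p against miR-421, 1 member (TFF2) passed with Cy5 signal alone, chosen after seeing the data, and 0 under every other alternative.

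For the other liver and gut genes, 5 passed with miR-338-5p and 11 with miR-421. Here too the share of all genes under each alternative is not given. With miR-338-5p the count was 10 without background correction, 9 with background subtracted, 3 with median centring, and 0 with trended and robust variance or the group's own arrays. With miR-421 it was 17 without background correction, 17 with background subtracted, 7 with median centring and 7 without a filter. Leaving out 1 array at a time gave 0 to 4 with miR-338-5p and 1 to 15 with miR-421. The causes were not tested.

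With the replicate number as a replicate block, the members past the threshold numbered 5 with miR-338-5p and 9 with miR-421, the latter without ALB (-4.31, limma adjusted p = 0.0597), and same-numbered samples did not deviate together. No named gene that passed changed direction under any alternative run. Dim probes leave 18 members untested and give only a bound on the fold of those with Cy5 at background.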
